A study of Mus musculus with 22 samples.

Results

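The genes described here are 9 genes of the unfolded protein response, the program by which a cell answers misfolded protein in the endoplasmic reticulum (ER). They are Hspa5, Sdf2l1, Pdia4, Dnajb9, Herpud1, Xbp1, Ern2, Atf4 and Ddit3. They were taken as named members of the pathway, with earlier results of these data known. Of the 18194 genes with a value on the arrays, the 9 carry 19 probe sets, and each gene is represented by its most variable probe set over the 22 arrays, by interquartile range. All 9 were among the 9097 more variable genes that were tested. RNA came from homogenized colonic tissue, which the labels call colonic mucosa, and was measured on 22 Affymetrix mouse arrays as GC-RMA log2 signals. VC- mice (PPAR γ fl/fl; Villin Cre-) kept PPAR γ, and VC+ mice (PPAR γ fl/fl; Villin Cre+) carried a Cre recombinase under the Villin promoter, which deletes PPAR γ in the intestinal epithelium and not in other cells of the colon. Both genotypes thus carried the floxed alleles. The study used mice of a mixed FVB/C57BL/6 and of a C57BL/6 background, and which of them gave the arrays is not stated in the labels or in the methods for the arrays, nor is their age. The mice received no dextran sodium sulfate (DSS, a polymer that injures the colonic epithelium) at day 0, or 2.5% DSS in the drinking water for 2 or 7 days. VC- mice gave 3, 3 and 4 arrays at days 0, 2 and 7, and VC+ mice gave 3, 5 and 4. Nothing in the labels ties an array to its own mouse, and a p-value here therefore covers only the spread among arrays, which may be technical.

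Secreted and membrane proteins are folded in the ER by chaperones, of which Hspa5 (BiP) is the central member, and are joined by disulfide bonds through enzymes such as Pdia4. When unfolded protein accumulates, sensors in the ER membrane act through transcription factors. Ern1 and its gut epithelial relative Ern2 (IRE1 beta) splice the mRNA of Xbp1, Eif2ak3 (PERK) raises the translation of Atf4, and Atf6 is cut to release its active part. The induced genes include chaperones, parts of ER-associated degradation such as Herpud1, and, on the PERK branch, Ddit3 (CHOP), which is tied to cell death. Goblet cells of the colon, which fold large amounts of mucin, depend on this system. Splicing of Xbp1, translation of Atf4 and cleavage of Atf6 are not read by these arrays, which give mRNA levels alone.

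Some promoters of the pathway carry known sequence elements, and those with a match are shown for the 2 members that have one, Hspa5 and Herpud1, and for 3 genes whose signals were most like those of Hspa5 or Sdf2l1. RefSeq promoter windows (build GRCm38.p6, 250 bases before to 50 after the gene start) were found for 8 of the 9 genes, Ern2 being the exception, and were searched on both strands. The ER stress response element, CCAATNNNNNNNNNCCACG, lies in the Hspa5 window and in 0.119% of all 32851 windows, and in those of 9 of 66 other genes of the pathway. Its second form, known as ERSE-II, lies in the Herpud1 window, in 0.0365% of all windows and in 1 of the 66. The A form of the unfolded protein response element, TGACGTGA, lies in the Hspa5 window, in 0.441% of all windows and in 0 of the 66, while the G form, TGACGTGG, lies in none of the 8, in 0.676% of all and in 4 of the 66. The amino acid response element, TGATGNAA, lies in the Herpud1 window, in 3.97% of all windows and in 8 of the 66. The windows of Sdf2l1, Pdia4, Xbp1, Dnajb9, Atf4 and Ddit3 hold none of these letters. A match is a description of the letters only. In the lines below, capitals mark these matches, and no 2 of them overlap. In Hspa5 they lie at bases -157 to -150 and -65 to -47 from the gene start, and in Herpud1 at -112 to -105 (on the opposite strand) and -52 to -42. Creld2, Dnajc3 and Calr, ER chaperone genes or partners of them, each carry 1 match to the first element, on the opposite strand in Creld2 and Calr. Each line gives the 200 bases before the start, 5′ to 3′ on the strand of the gene.
Hspa5 (chr2:34771890-34772089, + strand): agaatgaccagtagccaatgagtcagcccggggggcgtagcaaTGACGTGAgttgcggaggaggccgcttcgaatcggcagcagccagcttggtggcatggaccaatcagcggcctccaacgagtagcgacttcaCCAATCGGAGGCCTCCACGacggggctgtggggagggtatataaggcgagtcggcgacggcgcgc
Herpud1 (chr8:94386229-94386428, + strand): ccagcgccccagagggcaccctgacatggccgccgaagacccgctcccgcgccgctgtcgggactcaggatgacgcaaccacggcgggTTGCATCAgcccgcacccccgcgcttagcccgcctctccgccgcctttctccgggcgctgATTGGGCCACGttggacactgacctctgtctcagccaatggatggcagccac
Creld2 (chr15:88819446-88819645, + strand): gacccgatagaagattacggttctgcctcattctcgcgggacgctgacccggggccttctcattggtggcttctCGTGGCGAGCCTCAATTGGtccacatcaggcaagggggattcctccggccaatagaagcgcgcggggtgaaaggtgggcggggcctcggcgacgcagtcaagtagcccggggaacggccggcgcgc
Dnajc3 (chr14:118937732-118937931, + strand): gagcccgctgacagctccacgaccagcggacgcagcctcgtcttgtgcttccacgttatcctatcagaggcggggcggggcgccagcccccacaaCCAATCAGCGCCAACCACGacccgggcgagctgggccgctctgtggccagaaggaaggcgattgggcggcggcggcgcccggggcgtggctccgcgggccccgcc
Calr (chr8:84846932-84847131, - strand): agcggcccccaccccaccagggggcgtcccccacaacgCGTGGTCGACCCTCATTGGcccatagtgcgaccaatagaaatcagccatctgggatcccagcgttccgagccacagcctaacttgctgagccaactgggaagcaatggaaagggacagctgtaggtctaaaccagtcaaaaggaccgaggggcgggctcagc

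Some arrays stood apart within their groups, and 1 marker of position along the colon moved with the groups. Pparg, the deleted gene, had log2 signals of 9.58 to 9.63 in VC- mice and 8.50 to 8.83 in VC+ mice at day 0. It was at 9.87 to 10.96 in VC- mice and 6.87 to 9.54 in VC+ mice on day 2, again without overlap, but at day 7 the genotypes overlapped, at 7.39 to 9.82 and 6.26 to 10.35. The place of its probe set relative to the deleted part is not given in the sources used here, so these values may not check the labels. Prss2, a trypsinogen of the pancreas, was at 13.77 on VC- day 0 replicate 3, 14.74 on VC- day 7 replicate 2 and 11.20 on VC+ day 7 replicate 4, while the remaining 19 arrays lay between 3.27 and 4.20. Hoxb13, a gene of the most distal colon, was at 7.29 to 9.67 on the 3 VC- day 0 arrays and 2.88 to 3.08 on the 3 VC- day 2 arrays, while 4 of the 5 VC+ day 2 arrays were at 9.45 to 12.42 and 1 was at 3.07. In each of the other 3 groups 1 array was at 6.88 or above and the rest at 3.81 or below. Position along the colon can thus not be fully told apart from day in VC- mice, or from genotype at day 0 and at day 2. The same holds in VC+ mice for day 2 against day 0 and for day 7 against day 2. Values with Hoxb13 as a covariate are given for some of the comparisons that moved, not for all. On VC- day 7 replicate 2, all 12 goblet cell markers and 7 of 10 colonocyte markers had their lowest signal of the 22 arrays.

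None of the 9 genes passed the test in any comparison of days or genotypes (limma, two-sided, Benjamini-Hochberg over the 9097 genes, threshold 0.05). In VC- mice, 0 of 9 genes passed at day 2 against day 0, where 0.0110% of all genes tested passed, and none had an unadjusted p under 0.05. At day 7 against day 0 it was again 0 of 9 in VC- mice, where 10.6% of all genes passed, and 1 of 9 (Ern2) had an unadjusted p under 0.05, against 32.4% of all genes. In VC+ mice the background was 0.0550% at day 2 and 1.75% at day 7, and the unadjusted p was under 0.05 for 0 and 3 of the 9 genes (Ddit3, Dnajb9 and Herpud1 at day 7). At day 7 against day 2, 5.61% of all genes passed in VC- mice and 7.58% in VC+ mice, with 1 (Atf4) and 2 (Atf4 and Herpud1) of the 9 genes under an unadjusted 0.05.

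Deletion of PPAR γ gave the same count. For VC+ against VC- mice, 0.0110% of all genes passed at day 0, 0.0440% at day 2 and 0% at day 7, and Herpud1 at day 2 was the only one of the 9 genes with an unadjusted p under 0.05 at any of the 3 days. For the difference in response between genotypes, 0.0220% of all genes passed at day 2 and 0% at day 7, and no member had an unadjusted p under 0.05. The median log2 difference of the 9 genes at day 7 against day 0 was -0.09 in VC- mice, the same as that of all genes tested (-0.09), and -0.23 in VC+ mice, where it was -0.02 over all genes. At day 2 against day 0 the median of the 9 genes was -0.34 in VC- mice and -0.26 in VC+ mice, beside -0.02 over all genes in each, with 9 and 7 of the 9 differences below 0. With Hoxb13 as a covariate, the differences of Hspa5, Pdia4 and Ern2 at day 2 in VC- mice were above 0, at 0.02, 0.27 and 0.12. In VC+ mice the covariate moved the same genes the other way. Their differences at day 2 were -0.48, -0.60 and -0.18, in place of -0.20, -0.32 and 0.11. The comparisons within a genotype share their day 0 arrays, and the members vary together over the arrays, so these signs are not independent of each other. With the same covariate, VC+ minus VC- at day 2 was -0.06 for Hspa5, -0.35 for Pdia4 and 0.03 for Ern2, in place of 0.51, 0.21 and 0.61. Their differences in response at day 2 were then -0.51, -0.88 and -0.30, in place of 0.29, -0.09 and 0.52. That of Sdf2l1 was -0.62 in place of 0.44. In bulk tissue, fewer cells of a type and less RNA per cell cannot be told apart.

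**Figure D1:**
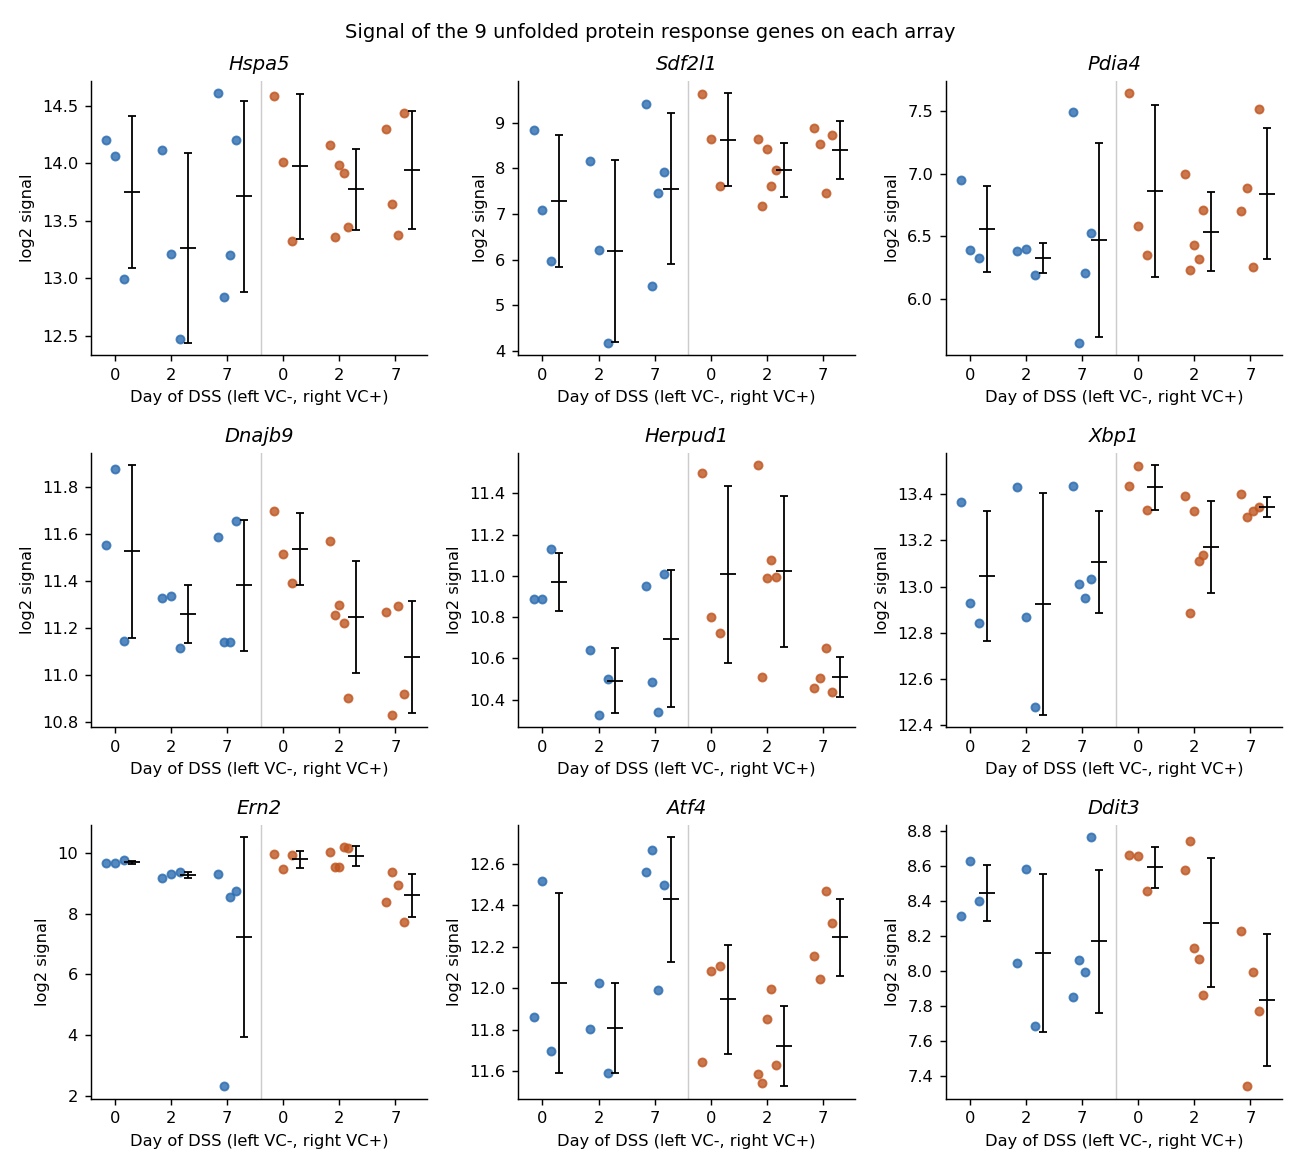
Log2 signal (y axis) of each of the 9 genes on each array, by day of DSS (x axis), with VC- mice in blue and VC+ mice in orange. Points are arrays in the order of their replicate numbers, and the black bar beside them is the mean with its SD (n = 3 to 5). The groups overlap for most genes, and the Ern2 panel holds a single VC- day 7 array at 2.32.

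The ER chaperone Hspa5 kept a high signal in all 6 groups, and its spread within groups was larger than the differences between them. In VC- mice the log2 signals were 14.20, 14.06 and 12.99 at day 0, 14.12, 13.21 and 12.47 at day 2, and 14.61, 12.84, 13.20 and 14.20 at day 7. In VC+ mice they were 14.59, 14.01 and 13.32 at day 0, 14.16, 13.36, 13.99, 13.92 and 13.44 at day 2, and 14.30, 13.65, 13.38 and 14.44 at day 7. Each group held an array at 14.12 or above and an array at 13.38 or below, and the groups overlapped in each comparison. The group means ran from 13.26 ± 0.83 (SD, n = 3) in VC- mice at day 2 to 13.97 ± 0.63 (SD, n = 3) in VC+ mice at day 0, and no neighbours in this order differed beyond their spread. The difference of day 7 from day 0 was -0.04 in VC- mice (95% interval -1.01 to 0.92, adjusted p = 0.957) and -0.03 in VC+ mice (-0.996 to 0.934, adjusted p = 0.990). The intervals thus leave room for a change in either direction, up to about the size of their bounds. These bounds are not a limit of detection. Of its 3 probe sets, the brighter followed the main one over the arrays (r = 0.97) and the dimmer did so less (r = 0.56).

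Sdf2l1, an ER protein that works with the chaperone complex of Hspa5, varied more over the arrays than Hspa5 and Pdia4, with a range of 5.45 beside 2.14 and 1.99. Its signals in VC- mice were 8.83, 7.08 and 5.97 at day 0, 8.17, 6.21 and 4.18 at day 2, and 9.42, 5.43, 7.46 and 7.92 at day 7. In VC+ mice they were 9.63, 8.65 and 7.61 at day 0, 8.64, 7.17, 8.42, 7.62 and 7.96 at day 2, and 8.88, 8.52, 7.46 and 8.73 at day 7. The lowest signals were in VC- mice, and the genotypes overlapped at each day. The mean of VC+ mice was higher by 1.34 (standard error 0.95) at day 0, 1.78 (0.85) at day 2 and 0.84 (0.82) at day 7. None of these passed, with adjusted p = 0.877, 0.405 and 0.584, and the interval at day 2 ran from -0.00 to 3.56. Single VC- arrays moved these values. At day 0 the lowest difference was 0.67, when replicate 3 was left out, and the highest 2.11, when replicate 1 was. At day 2 leaving out replicate 3 gave 0.77 and leaving out replicate 1 gave 2.77, and at day 7 the bounds were 0.13 (replicate 2) and 1.46 (replicate 1). With Hoxb13 as a covariate the day 2 difference was 1.03.

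Pdia4, a protein disulfide isomerase, had group means from 6.33 ± 0.12 (SD, n = 3) in VC- mice at day 2 to 6.86 ± 0.69 (SD, n = 3) in VC+ mice at day 0. Its lowest array was VC- day 7 replicate 2, at 5.65, and its highest VC+ day 0 replicate 1, at 7.64. The groups overlapped in every comparison, and the lowest adjusted p was 0.570, for VC+ against VC- mice at day 7 (difference 0.37, 95% interval -0.37 to 1.11). Its second probe set was near the bottom of the scale on all arrays, at 1.90 to 1.96.

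Herpud1, an ER membrane protein of ER-associated degradation, was at a lower mean in VC+ mice at day 7 than at the earlier days, without passing the test. In VC+ mice the signals were 11.50, 10.80 and 10.72 at day 0, 11.54, 10.51, 10.99, 11.08 and 10.996 at day 2, and 10.46, 10.51, 10.65 and 10.43 at day 7. All 4 day 7 arrays lay below the 3 day 0 arrays (difference -0.50, standard error 0.24, adjusted p = 0.363) and they overlapped day 2 through its second replicate (difference -0.51, 0.21, adjusted p = 0.144). In VC- mice they were 10.89, 10.89 and 11.13 at day 0, 10.64, 10.33 and 10.50 at day 2, and 10.95, 10.49, 10.34 and 11.01 at day 7. There the day 2 arrays lay below those of day 0 (difference -0.48, 0.25, adjusted p = 1.00), and those of day 7 reached both. The genotypes differed by 0.53 at day 2 (95% interval 0.06 to 1.00, adjusted p = 0.351). With Hoxb13 as a covariate this difference was 0.06, that of day 7 from day 2 in VC+ mice -0.12, and that of day 2 from day 0 in VC- mice -0.05, while day 7 against day 0 in VC+ mice was -0.34 (adjusted p = 0.393). The second probe set of Herpud1 followed the first over the arrays (r = 0.94), but gave a difference of day 7 from day 0 as large in VC- mice (-0.48) as in VC+ mice (-0.44), where the main one gave -0.27 and -0.50. On that probe set the difference was no larger in VC+ mice.

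Dnajb9 (ERdj4), a co-chaperone of Hspa5 that is induced through Xbp1, had a narrow range, from 10.83 to 11.88 over all arrays. In VC+ mice its signals were 11.70, 11.51 and 11.39 at day 0 and 11.27, 10.83, 11.29 and 10.92 at day 7, so that the groups did not overlap. The difference was -0.46 (95% interval -0.90 to -0.02, adjusted p = 0.346). In VC- mice the difference was -0.14 (-0.59 to 0.30, adjusted p = 0.647), and the difference between the genotypes' responses was -0.31 (-0.94 to 0.31, adjusted p = 0.729).

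Xbp1, the transcription factor whose mRNA is spliced by the IRE1 sensors, had group means between 12.92 ± 0.48 (SD, n = 3) in VC- mice at day 2 and 13.43 ± 0.10 (SD, n = 3) in VC+ mice at day 0. The day 7 arrays of VC+ mice lay within 13.30 to 13.40 and those of VC- mice within 12.95 to 13.43. Day 7 differed from day 0 by 0.06 in VC- mice (95% interval -0.38 to 0.50) and by -0.09 in VC+ mice (-0.52 to 0.35). The main probe set did not separate the genotypes at day 2 (difference 0.25, adjusted p = 0.665). The other 3 probe sets gave 0.82, 0.38 and 0.37 for the same comparison, with adjusted p = 0.229, 0.320 and 0.258 over all probe sets of single genes, so none of the 4 passed.

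Ern2, the IRE1 sensor of gut epithelium, had the largest fitted difference of the 9 genes, and its tests turned on a single array. In VC- mice the signals were 9.65, 9.67 and 9.75 at day 0, 9.17, 9.29 and 9.37 at day 2, and 9.30, 2.32, 8.53 and 8.76 at day 7. In VC+ mice they were 9.95, 9.46 and 9.93 at day 0, 10.01, 9.52, 9.54, 10.20 and 10.17 at day 2, and 8.39, 9.36, 8.94 and 7.71 at day 7. In each genotype all day 7 arrays lay below all day 0 arrays. The value of 2.32 belongs to VC- day 7 replicate 2, the array with Prss2 signal and the lowest goblet cell markers.

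With that array, the difference of day 7 from day 0 was -2.46 in VC- mice (standard error 1.04, adjusted p = 0.116) and -1.18 in VC+ mice (1.04, adjusted p = 0.695). Without it, the difference in VC- mice was -0.83 (0.32, adjusted p = 0.129). Because all groups share 1 estimate of the spread, that in VC+ mice kept its size and then passed the test, at -1.18 (0.30, adjusted p = 0.0351), as did day 7 against day 2 in VC+ mice, at -1.29 (0.27, adjusted p = 0.00551) in place of adjusted p = 0.435. With all arrays and Hoxb13 as a covariate, day 7 against day 2 in VC+ mice was -0.81 and did not pass (adjusted p = 0.746). Without all 3 arrays with Prss2 signal, the difference from day 0 was -0.80 in VC- mice (adjusted p = 0.191) and -0.88 in VC+ mice (adjusted p = 0.129), and day 7 against day 2 in VC+ mice passed at -0.99 (adjusted p = 0.0276). The responses of the genotypes to day 7 differed by 1.28 with all arrays and by -0.35 without VC- day 7 replicate 2 (adjusted p = 0.770 and 0.843).

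The goblet cell markers moved with Ern2. The mean signal of the 12 markers was 12.28 to 12.82 in VC- mice at day 0, 11.82 to 12.50 at day 2 and 8.39 to 12.53 at day 7, and in VC+ mice 12.13 to 13.07 at day 0, 12.58 to 13.07 at day 2 and 10.86 to 12.09 at day 7. Of the 11 that were tested, none passed at day 7 against day 0 in either genotype, and 1 (Clca1) fell in VC+ mice at day 7 against day 2. Over the 22 arrays, Ern2 and the marker mean had a Pearson r of 0.94 (permutation p = 1e-05, the smallest that 100000 permutations can give, adjusted p = 0.00063 over 63 relations of members and marker lists) and a Spearman rho of 0.79 (permutation test, adjusted p = 0.00084). Without the 2 arrays farthest from the median of the marker mean r was 0.68, and without VC- day 7 replicate 2 alone it was 0.80. Colonocyte markers had r = 0.81 and rho = 0.47 with Ern2 (permutation tests, adjusted p = 0.0115 and 0.0988). Smooth muscle markers had r = 0.38 and rho = 0.62 (permutation tests, adjusted p = 0.202 and 0.0230). Without VC- day 7 replicate 2, r was 0.48 for colonocyte and 0.61 for smooth muscle markers. Macrophage and monocyte markers ran the other way, with r = -0.80 and rho = -0.67 (permutation tests, adjusted p = 0.00063 and 0.0159), and r = -0.63 without the 2 farthest arrays. Their mean also moved with day, at 7.52 to 7.99 at day 0, 8.01 to 8.67 at day 2 and 8.24 to 11.45 at day 7. The permutations shuffled arrays across groups, so the p-values for marker lists include differences between days. No r after removal of the group means is given for them. For neutrophil markers no pooled r is given, since their mean was 2.73 to 3.31 on the arrays of days 0 and 2 and 4.41 to 9.60 on those of day 7. The part of these cells in the Ern2 values was not tested.

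Herpud1 was the other member that ran with the goblet cell markers, with r = 0.57 and rho = 0.85 (permutation tests, adjusted p = 0.0487 and 0.00063). Its r was 0.78 without the 2 farthest arrays. With smooth muscle markers Herpud1 had r = 0.55 and rho = 0.63 (permutation tests, adjusted p = 0.0551 and 0.0224). Atf4 ran against the goblet cell markers, with r = -0.52 and rho = -0.48 (permutation tests, adjusted p = 0.0487 and 0.0988). It also ran against colonocyte markers, with r = -0.58 and rho = -0.55 (permutation tests, adjusted p = 0.0274 and 0.0591). Without VC- day 7 replicate 2, these r of Atf4 were -0.36 and -0.46. The part of these cells in the Atf4 values was not tested. The 3 genes most like Ern2 over the 22 arrays were Exph5, Slc44a3 and Akr1c14 (r = 0.98 each), and those most like Herpud1 were Nxpe4, Atp12a and Insl5 (r = 0.90, 0.90 and 0.87). None of these 6 genes is in the pathway lists used here.

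Atf4, the transcription factor of the PERK branch, had its highest means at day 7 in both genotypes on its main probe set, but not on a second one. In VC- mice the signals were 11.86, 12.52 and 11.70 at day 0, 11.80, 12.02 and 11.59 at day 2, and 12.56, 12.66, 11.99 and 12.50 at day 7. In VC+ mice they were 11.64, 12.08 and 12.11 at day 0, 11.59, 11.54, 11.85, 12.00 and 11.63 at day 2, and 12.15, 12.04, 12.47 and 12.31 at day 7. All day 7 arrays of VC+ mice lay above all day 2 arrays, while in VC- mice 1 array of day 7 lay within the range of day 2. Day 7 differed from day 2 by 0.62 in VC- mice (95% interval 0.16 to 1.09, adjusted p = 0.0876) and by 0.52 in VC+ mice (0.12 to 0.93, adjusted p = 0.109), neither of which passed. The difference from day 0 was smaller, at 0.40 (-0.06 to 0.87) and 0.30 (-0.17 to 0.76). A second, bright probe set of Atf4 followed the main one in part (r = 0.52). It gave 0.11 and 0.29 for day 7 against day 2 in VC- and VC+ mice, and -0.11 and 0.11 for day 7 against day 0, so the direction in VC- mice depended on the probe set. The third was at 3.17 to 3.57 on all arrays.

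Ddit3 (CHOP), a transcription factor downstream of Atf4, was not higher under DSS on average in either genotype. In VC+ mice its signals were 8.66, 8.66 and 8.46 at day 0, 8.58, 8.74, 8.13, 8.07 and 7.86 at day 2, and 8.23, 7.34, 7.996 and 7.77 at day 7. The day 7 arrays lay below those of day 0, with a difference of -0.76 (95% interval -1.33 to -0.19, adjusted p = 0.205). In VC- mice the signals were 8.32, 8.63 and 8.40 at day 0 and 7.85, 8.06, 7.998 and 8.77 at day 7, which overlapped (difference -0.28, -0.85 to 0.29, adjusted p = 0.482). The difference between the genotypes' responses was -0.48 (-1.29 to 0.33, adjusted p = 0.687).

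**Figure D2:**
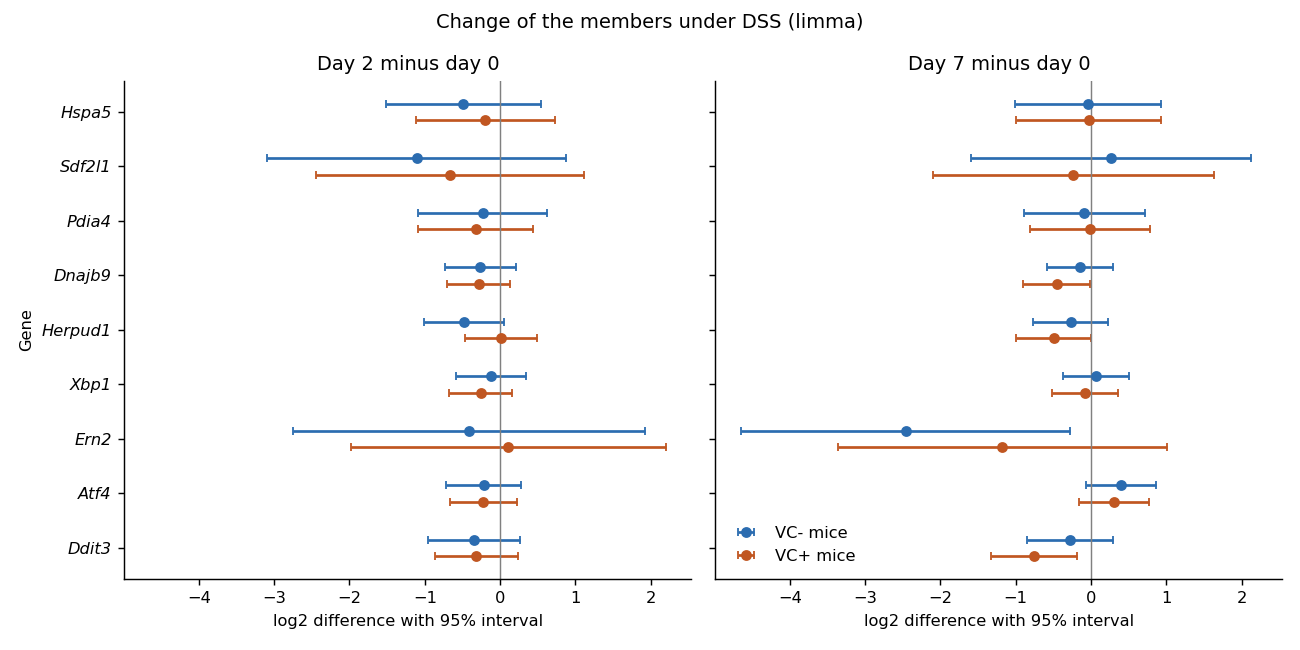
Log2 difference from day 0 (x axis) of each of the 9 genes (y axis) at day 2 (left) and day 7 (right), with VC- mice in blue and VC+ mice in orange. Points are limma estimates and bars their 95% intervals. Intervals that leave out 0 belong to Ern2 in VC- mice and to Ddit3, Dnajb9 and Herpud1 in VC+ mice, all at day 7, and none of the 4 passed after adjustment over all genes.

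Hspa5 and Sdf2l1 were mostly high or low on the same arrays, within groups as well as over all of them. Pdia4 and Xbp1 followed them more closely than each other. Of the 36 pairs of members, 8 were correlated by Pearson's r and 10 by Spearman's rho over the 22 arrays (permutation tests, adjusted p under 0.05 over the 36 pairs). Hspa5 and Sdf2l1 had r = 0.89 and rho = 0.88 (adjusted p = 0.00018 and 0.00009), and r = 0.83 without the 2 arrays farthest in Hspa5. Sdf2l1 and Xbp1 had r = 0.88 and rho = 0.89 (adjusted p = 0.00018 and 0.00009), and r = 0.85 without the 2 farthest arrays. Hspa5 with Pdia4 and with Xbp1 reached r = 0.76 and 0.75, and Dnajb9 with Ddit3 r = 0.72 (permutation tests, adjusted p = 0.00036, 0.00081 and 0.0012). Pdia4 and Xbp1 had r = 0.57 (permutation test, adjusted p = 0.0269), 0.47 after the group means were taken out and 0.45 without replicate 1. After the group means were taken out, Hspa5 and Sdf2l1 had r = 0.91, Sdf2l1 and Xbp1 0.84, and Hspa5 with Pdia4 and with Xbp1 0.74 each. The r of Hspa5 and Sdf2l1 was 0.93 within VC- mice, 0.87 within VC+ mice, and on the 19 arrays without Prss2 signal 0.86. Ern2 and Atf4 ran in opposite directions, with r = -0.54 and rho = -0.55 (permutation tests, adjusted p = 0.00386 and 0.0373), and r = -0.24 after the group means were taken out.

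Of the 3 genes most like each member, 3 of 3 for Hspa5 and for Pdia4 were other members or genes of the pathway lists. It was 1 of 3 for Sdf2l1, Xbp1 and Ddit3, and none for Dnajb9, Herpud1, Ern2 and Atf4. The members and the tested genes of those lists made up 9 and 61 of the 9097 genes tested. Creld2, an ER protein induced by ER stress, and Dnajc3 (p58IPK), a co-chaperone of Hspa5, were most like Hspa5 (r = 0.93 and 0.92). Calr, the chaperone calreticulin, was most like Sdf2l1 (r = 0.92), followed by Ubfd1 and Txnl1 (r = 0.91 and 0.90), which are in no pathway list. Creld2, Manf, a secreted ER stress protein, and Dnajb11, a co-chaperone, were most like Pdia4 (r = 0.87, 0.86 and 0.85). The pattern of Creld2 shows the size of this variation. It ranged from 8.27 on VC- day 7 replicate 2 to 12.07 on VC+ day 0 replicate 1. Of the variation of Hspa5 and Pdia4 over the arrays, 13.6% and 15.1% lay between the 6 groups, beside a median of 37.8% over all genes tested, while Atf4 had 56.4%. Most like Xbp1 were Slc35a4, Rif1 and Sdf2l1 (r = 0.92, 0.90 and 0.88). Those most like Ddit3 were Kif3b, H2aw and Dnajb9 (r = 0.78, 0.76 and 0.72). For Atf4 they were Mycbp2, Ccl11 and Ctps (r = 0.77, 0.74 and 0.73).

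**Figure D3:**
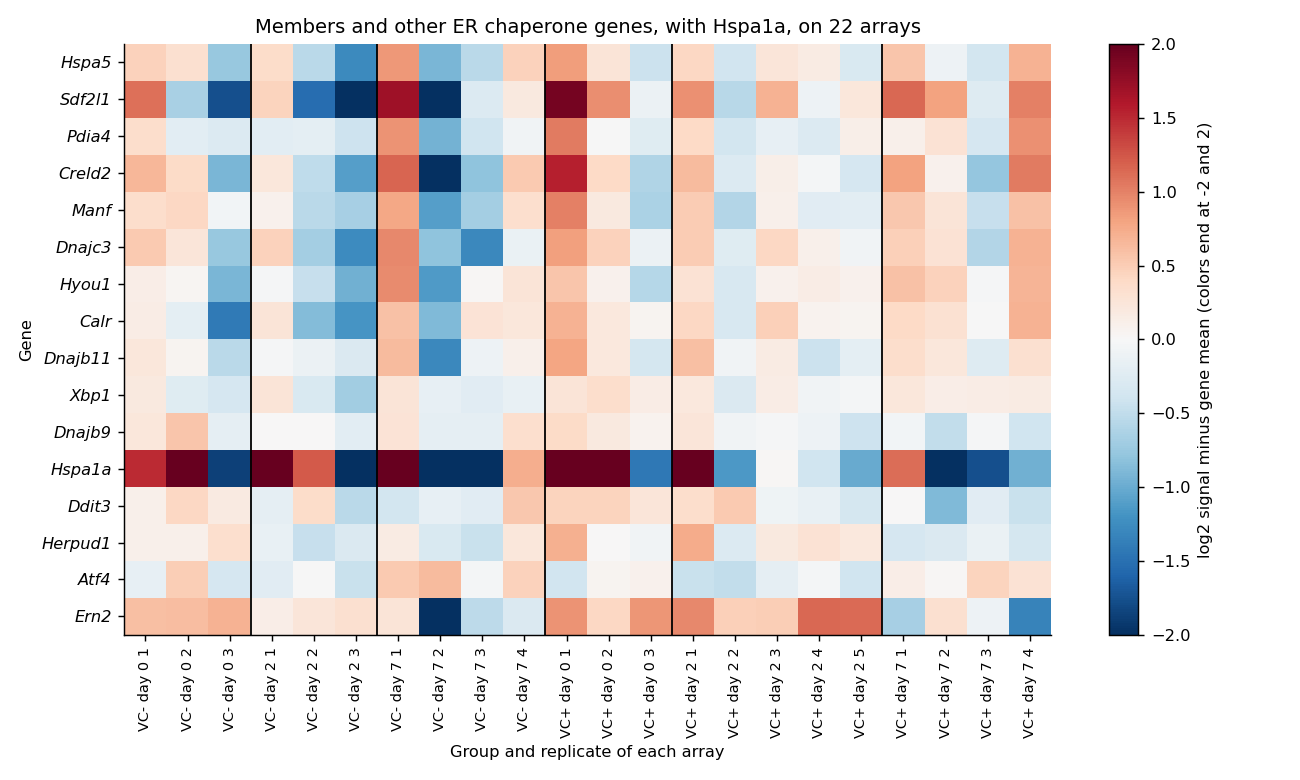
Log2 signal minus the mean of each gene (color, ending at -2 and 2) on the 22 arrays (x axis, by group and replicate, with lines between groups) for the 9 members, other ER chaperone genes and Hspa1a (y axis). The upper rows, from Hspa5 to Dnajb11, are mostly red or blue on the same arrays, and each group holds arrays of both colors. An exception is VC- day 0 replicate 2, where Hspa5 is above its mean and Sdf2l1 below.

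**Figure D4:**
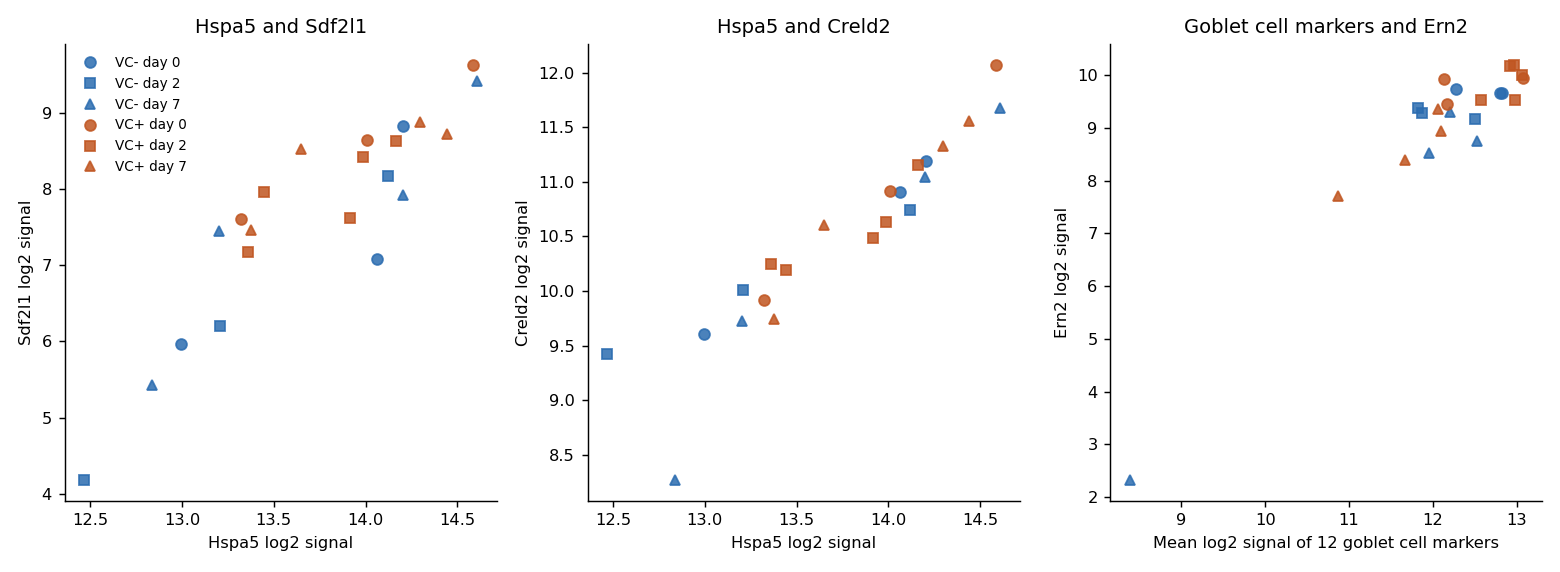
Log2 signals of Hspa5 (x axis) against Sdf2l1 (left) and Creld2 (middle), and the mean of 12 goblet cell markers (x axis) against Ern2 (right). Each point is an array, with VC- mice in blue and VC+ mice in orange, and circles, squares and triangles for days 0, 2 and 7. Arrays of all groups lie along the left (r = 0.89) and middle (r = 0.93) bands, and VC- day 7 replicate 2 lies apart at the lower left of the right panel.

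The array with the highest chaperone signals was often replicate 1 of its group, a pattern chosen after the values were seen. Replicate 1 was the highest array for Sdf2l1 in 6 of 6 groups, for Hspa5 and Xbp1 in 5, and for Pdia4 in 4. Among all genes tested, replicate 1 was highest in 4 or more groups for 13.5%, in 5 or more for 4.69% and in 6 for 0.978%. On average over the groups it was higher than the other arrays by 0.84 for Hspa5, 1.79 for Sdf2l1 and 1.18 for Creld2, and the same difference was -0.14 for Atf4. The labels do not say what a replicate number stands for. On the 16 arrays other than replicate 1, r was 0.83 for Hspa5 and Sdf2l1, 0.85 for Sdf2l1 and Xbp1, and 0.90 for Hspa5 and Creld2. With the replicate number as a block, none of the 9 genes passed in any comparison, and the difference of Sdf2l1 between genotypes at day 2 was 1.74 (standard error 0.66, adjusted p = 0.450).

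Other genes of the pathway were taken from 6 lists, of which 77 of 80 genes have a value and 61 were tested. In VC- mice, 3 of the 61 rose and 5 fell between days 0 and 7, where 10.6% of all genes passed. In VC+ mice 1 rose and none fell, where 1.75% passed. At day 7 against day 2, 3 rose and none fell in each genotype, where 5.61% and 7.58% of all genes passed. All rises but 1 were in the list of the integrated stress response and ATF4 targets, of which 11 genes were tested. In VC- mice at day 7 against day 0 these were Cebpb (3.73, standard error 0.84), a transcription factor that is also induced in inflammation, Atf5 (1.28, 0.27), a stress-induced transcription factor, and Slc3a2 (1.19, 0.36), a subunit of amino acid transporters. The median of the 11 genes was -0.19, beside -0.09 over all genes, so the list as a whole did not shift upward. Macrophage and monocyte markers rose with them, 6 of 8 in VC- mice, and their part was not tested.

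In VC+ mice Asns, Psat1 and Cebpb rose. Asns, asparagine synthetase, was higher at day 7 than at day 0 by 0.97 (standard error 0.21, adjusted p = 0.0209) and than at day 2 by 1.04 (0.18, adjusted p = 0.00379). Psat1, an enzyme of serine synthesis, was higher at day 7 than at day 2 by 1.77 (0.36, adjusted p = 0.00901), and Cebpb by 2.56 (0.74, adjusted p = 0.0396). The mean of Cebpb was 3.29 in VC- mice at day 0 and 3.81 in VC+ mice at day 2, near the median signal of the arrays (3.41 to 3.55). Its rises in both genotypes are thus no exact measure of a change. The day 7 against day 2 rises of Asns and Psat1 passed under all 31 alternatives run for each, while that of Asns against day 0 passed under 23 of 31 and that of Cebpb against day 2 under 19 of 31. All 6 smooth muscle markers fell in the same comparison of day 7 with day 2, and 2 of 3 tested neutrophil markers rose, and their part was not tested. The median of the 11 genes in VC+ mice was 0.59 at day 7 against day 0, beside -0.02 over all genes.

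In VC- mice 5 genes fell between days 0 and 7. They were Creb3l1 (-1.89, standard error 0.52), an ER-bound transcription factor, Pdia5 (-1.45, 0.43) and Agr3 (-2.16, 0.26), both of the disulfide isomerase family, Dnajc10 (-0.88, 0.25), an ER disulfide reductase, and Ssr4 (-0.81, 0.21), a subunit of the translocon. Adjusted p lay between 0.000264 and 0.0400. None of 12 tested genes of ER-associated degradation passed in any of the 4 comparisons with day 7. The fall of 4 of these 5 genes did not pass without VC- day 7 replicate 2, and neither did the rise of Slc3a2. Dnajc10 and Ssr4 then kept most of their difference, at -0.81 (adjusted p = 0.0765) and -0.71 (0.0646), while Creb3l1 was at -1.35 (0.0785), Pdia5 at -0.96 (0.0919) and Slc3a2 at 0.81 (0.101). Without the 3 arrays with Prss2 signal, Agr3 was the only one of the 8 genes that passed. Without VC- day 0 replicate 3, one of those 3 arrays, adjusted p was 0.115 to 0.132 for Creb3l1, Pdia5, Dnajc10, Ssr4 and Slc3a2, 0.0502 for Atf5 and 0.0712 for Cebpb, and the number of genes that passed among all tested was 127 in place of 963. Ero1a, the oxidase that feeds disulfide isomerases, was higher in VC- mice at day 7 than at day 2 by 0.93 (0.25, adjusted p = 0.0406).

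Agr3 was the only gene of the 61 that passed outside these comparisons. Its mean was 4.43 ± 0.62 (SD, n = 3) in VC- mice at day 0 and 2.27 to 2.60 in the other 5 groups. It thus passed at day 2 against day 0 in VC- mice (-2.06, adjusted p = 0.00421) and for VC+ against VC- mice at day 0 (-1.95, adjusted p = 0.00885), which share the VC- day 0 arrays, as does the difference in response at day 2 (2.19, adjusted p = 0.0486). Once the 3 arrays with Prss2 signal were left out, the differences kept their size, at -2.03, -1.93 and 2.16, and did not pass (adjusted p = 0.0991, 0.183 and 0.360). The 5 lower means lie below the median signal of every array (3.41 to 3.55), so these differences are no exact measure of a change.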

How the data were processed

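The authors hybridized colonic RNA to Affymetrix mouse arrays, computed GC-RMA values in R 2.10.1, and deposited 1 table of log2 signals for 45101 probe sets on 22 arrays. The versions of their packages and the genome build are not given in the sources used here. Raw intensities were not used, and the number of arrays per group limits the precision. Of the probe sets, 34958 were annotated to 1 gene symbol, 932 to several, and the rest to none. Each gene kept its most variable probe set by interquartile range (18194 genes), and the 9097 genes with ranges in the upper 50% (limit 0.246) were tested.

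Groups came from the labels. The 6 group means were estimated over all 22 arrays (limma 3.58.1, R 4.3.3), with moderated two-sided tests and Benjamini-Hochberg adjustment within each of 11 comparisons (threshold 0.05). Intervals are 95% intervals of the fitted difference. Permutation tests used scipy 1.17.1 under Python 3.11.15, with 100000 permutations. The scripts were tested on simulated data. The members and lists were chosen with earlier results of these data known. All members were named, and other genes of the lists were named where they passed a test (up to 4 per list and comparison, by size), with the 3 genes most correlated with a member.

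Arrays of the same replicate number did not deviate together throughout: 18 of 48 such pairs of deviations from the group means had r above 0.1, against 36 of 152 pairs of other numbers, so the numbers did not meet the rule for pairs (every pair above 0.1), though their mean r was higher (0.0842 against -0.0267). Alternatives were no variance filter, dim probe sets left out (log2 signal of 4 on at least 3 arrays), the probe set with the highest mean, quantile normalization, only the groups compared, array quality weights, the replicate number as a block, the arrays with Prss2 signal (log2 above 8) left out, Hoxb13 as a covariate, and each of the 22 arrays left out in turn. The test of every probe set and the comparisons of replicate 1 were added after the data were seen.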

Additional observations from a re-analysis of the deposited data

Results flagged for a closer look

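Ern2 on VC- day 7 replicate 2, at a log2 signal of 2.32, stood apart from the other 3 arrays of its group, at 8.53 to 9.30. Its gap to the nearest array was larger than Dixon's 95% critical value allows. It was the only such array among 27 groups of 4 or 5 arrays (3 groups for each of the 9 genes). Chance alone flags about 1 in 20 groups, and the 27 groups share their arrays over the 9 genes. The count of flags can thus not judge this value. The same array also had the lowest signal for all 12 goblet cell markers, and the cause was not tested.

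For Agr3, a relative of the disulfide isomerases, the fitted differences of day 2 from day 0 in the 2 genotypes were 2.19 apart on the log2 scale (limma, adjusted p = 0.0486). This rests on the VC- day 0 arrays alone, at 3.78 to 5.02, since the other 5 group means, at 2.27 to 2.60, lie below the median signal of every array, and its size is then no exact measure of a change. The test of this difference passed under 7 of the 30 alternatives that gave a value.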

How the results depend on the processing

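No member passed with all arrays in any comparison, and 3 members (Ern2, Herpud1 and Ddit3) passed under at least 1 alternative. In VC+ mice at day 7 against day 2, 1 member passed with only the groups compared (Ern2, adjusted p = 0.0438), 1 without the arrays with Prss2 signal (Ern2, 0.0276) and 2 with array quality weights (Ern2, 0.0156, and Herpud1, 0.0175). With Hoxb13 as a covariate, neither Ern2 nor Herpud1 passed there (adjusted p = 0.746 and 0.774). Between days 0 and 7 in VC+ mice, 1 passed with array quality weights (Ddit3, 0.0255). With 1 array left out in turn, 0 to 1 members passed at day 7 against day 0 in VC- mice (Ern2, 0.0323, without VC- day 7 replicate 1), and 0 to 1 in VC+ mice at day 7 against day 0 and against day 2 (Ern2 without VC- day 7 replicate 2). With every probe set of a single gene tested, none of the 19 of the members passed. The sign of 50 of 99 member differences changed under at least 1 alternative, none of them called with all arrays. With the replicate block no member passed, and Ern2 differed by -2.58 at day 7 against day 0 in VC- mice (adjusted p = 0.144). Of the 22 arrays, 13 correlated best with one of their own number, although 48 pairs share a number and 152 do not, which is a hint from the data and not from the design. The cause of these changes was not tested, beyond the shared spread described for Ern2.

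The number of all genes that passed moved more. At day 7 against day 0 in VC- mice it was 963, with 3 (only the groups compared) to 2223 (array quality weights) under other settings and 127 to 2599 with 1 array left out. In VC+ mice it was 159, with 46 to 1509 and 53 to 353. From day 2 to day 7 it was 510 in VC- mice, with 0 to 1369 and 50 to 2121, and 690 in VC+ mice, with 256 to 2645 and 187 to 1246. At day 2 against day 0 it was 1 (0 to 8, and 1 to 4) in VC- mice and 5 (0 to 1287, and 0 to 19) in VC+ mice. Between genotypes it was 1 (0 to 686, and 0 to 3) at day 0, 4 (0 to 11, and 1 to 250) at day 2 and 0 (0 to 1592, and 0 to 1213) at day 7. For the difference in response it was 2 (0 to 340, and 0 to 38) at day 2 and 0 (0 to 792, and 0 to 17) at day 7.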

Other observations

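Dnajb9 was most like heat shock genes of the cytosol, which are in none of the pathway lists. Over the 22 arrays its r was 0.75 with Hspa1a and 0.74 with Hspa1b, the inducible Hsp70 genes, and 0.74 with Dnaja4, a cytosolic co-chaperone. Hspa1a ranged from 6.55 on VC+ day 7 replicate 2 to 13.31 on VC- day 2 replicate 1. Replicate 1 was the highest array of its group in 4 of 6 groups and was higher than the others by 2.67 on average. On the 16 arrays other than replicate 1, r of Dnajb9 with Hspa1a was 0.77.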
